A study of Mus musculus with 6 samples.

Results

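The 37 genes described here encode the transcription factor NRF2, its partners and proteins of redox defence, of which some are established NRF2 targets. They were taken by gene symbol, and all 37 were found among the 52550 genes in the files. The RNA came from splenic plasmacytoid dendritic cells (pDCs) of C57BL/6 mice, cells that answer nucleic acids with type I interferon. All 6 libraries came from cells exposed for 12 hours to R837 (imiquimod), an agonist of the receptor TLR7, in 3 of them alone and in the other 3 together with taurine, an amino sulfonic acid. The comparison was R837 plus taurine against R837 alone, and libraries without R837 were not analysed here. No sex, age or number of mice, pooling of animals or taurine dose is given in the labels used.

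NRF2, encoded by Nfe2l2, is held in the cytosol by KEAP1, which presents it for degradation. Oxidants and electrophiles modify cysteines of KEAP1, NRF2 then accumulates, pairs with a small MAF protein and binds antioxidant response elements, sites for which the repressor BACH1 competes. Its targets restore reduced glutathione and reduced thioredoxin, and both systems draw their electrons from NADPH, much of it made in the pentose phosphate pathway. In phagocytes and dendritic cells these enzymes handle peroxides made by the NADPH oxidase and by mitochondria.

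Recovered reads on genes ranged from 33585080 to 38392654 per library. All 18 listed markers of plasmacytoid dendritic cells were present, with summed normalized counts of 413747 to 449392 in R837 libraries and 434033 to 446264 in taurine libraries. The labels do not tie replicates to separate mice or cultures, and p-values therefore measure only the spread between these libraries, which may be technical. Values below are normalized counts (reads divided by 1 size factor per library), given for replicates 1, 2 and 3 or as mean ± SD with n = 3. Changes are R837 plus taurine minus R837 on the log2(normalized count + 1) scale, which understates changes of genes with few reads, with adjusted p-values from limma over the 15265 genes tested. All 37 genes passed the filter on low values.

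Of the 37 genes, 7 rose with taurine at an adjusted p under 0.05 and 0 fell. Among all tested genes 6.41% passed, of which the higher made up 3.75% of genes and the lower 2.66%. The 7 were Pgd, Srxn1, Txn1, Prdx5, Sod1, Gpx4 and Taldo1, spread over the glutathione, thioredoxin, superoxide and NADPH arms, with log2 changes between 0.37 and 0.59. At an unadjusted p under 0.05, 14 of the 37 genes were higher and 0 lower, where 11.6% of all tested genes were higher and 12.2% lower. In edgeR and DESeq2 0 of the 37 passed as lower. The log2 change was above 0 for 33 of the 37 genes, or 89.2%, against 48.6% of all tested genes, and the median change was 0.26 against -0.0114. All 3 taurine libraries lay above all 3 R837 libraries for 14 of the genes and below them for 0, where the shares among all tested genes were 14.6% and 15%. In bulk samples, a change in the RNA per cell and a change in the share of cells that carry a transcript cannot be told apart. The number of genes called moved when a single library was left out, in the set and over all genes. Leaving out R837 replicate 1 gave 5 of the set, replicate 2 gave 1 and replicate 3 gave 7. Over all genes those fits called 227, 100 and 780 higher, against 573 with all 6 libraries. Leaving out taurine replicate 1, 2 or 3 gave 1, 2 or 1 of the set, and 217, 156 or 101 over all genes. The number for the set was 0 in limma without the abundance trend. There, 12 of the 37 genes (32.4%) and 21.1% of all tested genes had an unadjusted p under 0.05. These 12 were all higher.

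**Figure D1:**
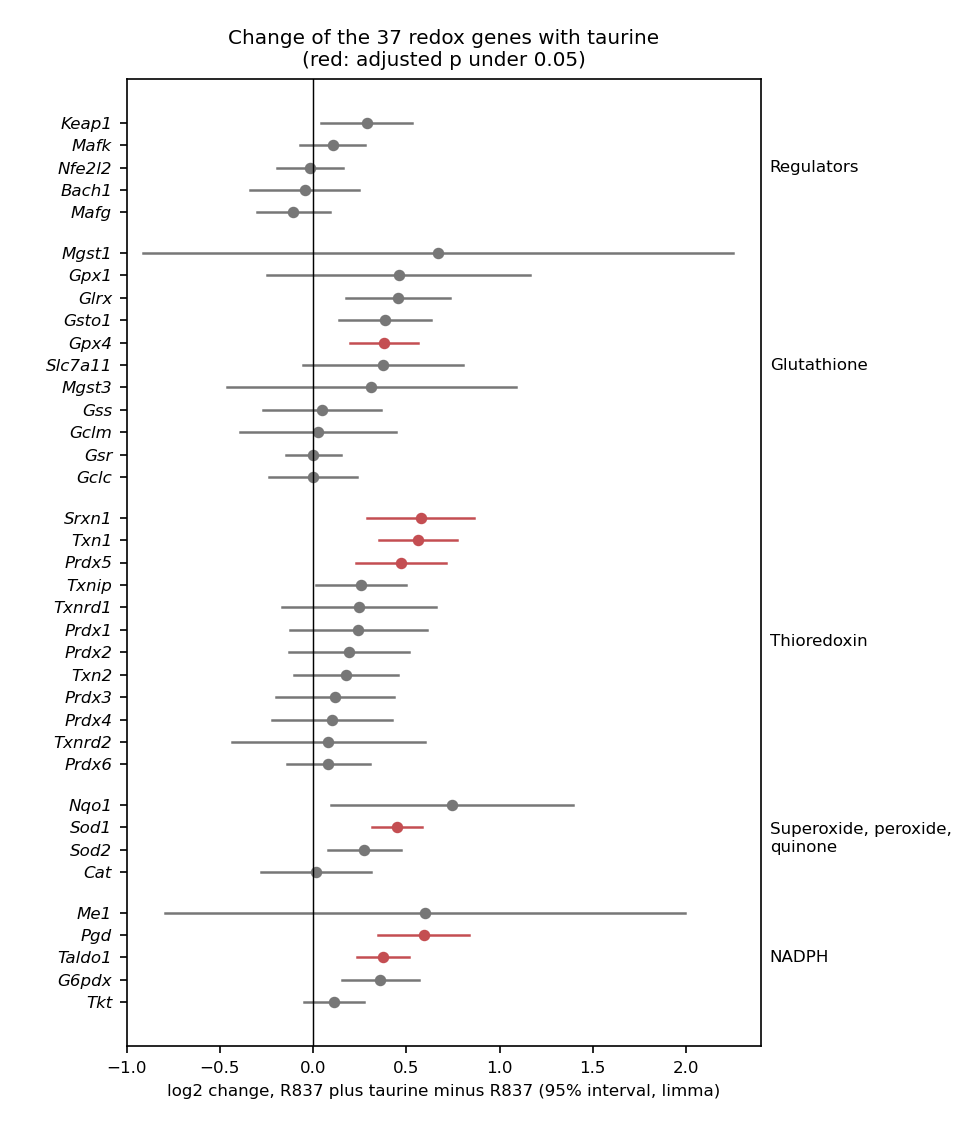
Log2 change of each of the 37 genes, R837 plus taurine minus R837 (x axis), with the 95% interval from limma as a line, ordered by arm and by change; red marks an adjusted p under 0.05. The 7 red genes lie between 0.37 and 0.59, 33 of 37 points lie above 0, and the intervals of Mgst1 and Me1 are the widest.

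The antioxidant response element was looked up in the promoters because it is the site through which NRF2 acts on its targets. The letters TGACNNNGC were searched on both strands in the 250 bases before each RefSeq start (GRCm38.p6, the assembly of mm10). Windows were found for 34 of the 37 genes, including the 7 that rose, and 9 genes held a match, or 26.5%, against 11.5% of all genes with a window. The share is a description of letters, not of binding. The 9 sites are shown 5′ to 3′ on the strand that carries the letters, with the match in capitals and up to 10 bases on either side:
G6pdx (chrX:74428919-74428947, strand +): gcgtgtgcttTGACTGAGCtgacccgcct
Gclm (chr3:122245413-122245441, strand -): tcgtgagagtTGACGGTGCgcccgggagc
Mafg (chr11:120633751-120633779, strand +): ctcgccgggtTGACCGTGCtcctgcagag
Mafk (chr5:139791513-139791535, strand -): gtacTGACACCGCttccgggatc
Mgst1 (chr6:138140461-138140489, strand -): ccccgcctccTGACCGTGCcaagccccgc
Nfe2l2 (chr2:75704885-75704913, strand -): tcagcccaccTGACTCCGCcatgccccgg
Prdx1 (chr4:116685456-116685484, strand -): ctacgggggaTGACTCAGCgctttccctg
Sod1 (chr16:90220696-90220724, strand -): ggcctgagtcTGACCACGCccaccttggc
Txnrd1 (chr10:82859104-82859132, strand -): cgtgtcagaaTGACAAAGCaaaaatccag
Sod1 was the only one of the 7 genes that rose with a match in this window, beginning 56 bases before its start. Sites outside the 250 bases were not searched, so a gene with no match here may hold a site elsewhere. The Prdx1 site carries the letters TGACTCAGC. An interferon response element core, a pair of GAAA repeats 2 bases apart, was searched in the same windows on both strands and matched in 0 of the 34 genes and in 3.46% of all genes. The whole Sod1 window is shown because this gene kept its call whichever library was left out, on the plus strand, with the reverse complement of the match in capitals:
Sod1 promoter (chr16:90220512-90220761, strand +): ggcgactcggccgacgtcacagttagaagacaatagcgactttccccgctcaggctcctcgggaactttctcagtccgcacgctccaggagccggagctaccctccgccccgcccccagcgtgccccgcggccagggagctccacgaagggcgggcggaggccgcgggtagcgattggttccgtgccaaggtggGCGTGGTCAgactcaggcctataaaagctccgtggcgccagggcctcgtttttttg

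Among the regulators, 0 of 5 genes passed the test in limma, edgeR or DESeq2. In limma 6.41% of all tested genes passed, so 0 of 5 says little about the regulators. At an unadjusted p under 0.05 in limma 1 of the 5 was higher, where 11.6% of all tested genes were. Nfe2l2 had 5556, 5564 and 5017 normalized counts with R837 and 5304, 5586 and 5053 with taurine. The groups overlapped fully, and the change was -0.017 ± 0.077 (SE) with a 95% interval of -0.19 to 0.16 and an adjusted p of 0.926. Keap1, the inhibitor, had 5195, 4032 and 4715 with R837 and 5974, 5123 and 5854 with taurine. The lowest taurine library lay below the highest R837 library, and the change of 0.29 ± 0.11 (SE) did not pass after adjustment (adjusted p = 0.147, limma). Exons of the antisense gene Gm16754 overlap those of Keap1, and with all reads of Gm16754 added the change was 0.18. It was 0.19 without R837 replicate 2. Bach1, the repressor that competes for the same sites, went from 1652 ± 157 to 1607 ± 228 (log2 change -0.046, adjusted p = 0.872). Of the small MAF partners, Mafk went from 2423 ± 44.5 to 2605 ± 77.3, with all taurine libraries above all R837 libraries but an adjusted p of 0.447, and Mafg from 3589.7 ± 278 to 3328 ± 161 (log2 change -0.11, adjusted p = 0.495). The Mafg change was -0.17 without R837 replicate 1 and -0.0605 without R837 replicate 3. The ratio of Keap1 to Nfe2l2 was 0.867 ± 0.123 with R837 and 1.07 ± 0.131 with taurine (two-sided exact permutation p = 0.3). The median change of the 5 genes was -0.0170.

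In the glutathione arm, Gpx4 was the 1 gene of 11 that rose, where 3.75% of all tested genes rose. Gpx4 is the selenoenzyme that reduces lipid peroxides inside membranes (ENSMUSG00000075706.10, chromosome 10, 80047166 to 80056439, plus strand, mm10). It had 5627, 4992 and 5350.3 normalized counts with R837 and 6493, 6894 and 7391 with taurine. Every taurine library exceeded every R837 library, and the change was 0.38 ± 0.080 (SE) with an adjusted p of 0.0293 in limma. Gpx4-ps2, a copy with 99.7% identity over 733 bases, held a mean of 132 normalized counts, so a part of the Gpx4 reads may have been assigned there. The call was kept without 1 of the 6 libraries, R837 replicate 3, and the adjusted p was 0.0508 after removal of length and GC trends.

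Glrx and Gsto1, further glutathione enzymes, had separate groups without passing the adjustment. Glrx (glutaredoxin, which reduces protein-glutathione disulfides) had 652, 523 and 615 with R837 and 816, 861 and 771 with taurine. The taurine values were all higher, with a change of 0.46 ± 0.12 (SE) and an adjusted p of 0.0640. Gsto1, an omega-class glutathione transferase, had 618, 643 and 639 with R837 and 855, 873 and 758 with taurine. Its groups were also separate, with a change of 0.38 ± 0.11 (SE) and an adjusted p of 0.0710.

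Genes for making and recycling glutathione had estimates near 0, not all of them with narrow intervals, and none passed. Gclc and Gclm, the catalytic and modifier subunits of glutamate-cysteine ligase, the rate-limiting enzyme, had changes of -0.0018 ± 0.10 (SE) and 0.027 ± 0.18 (SE). For Gclc the 95% interval ran from -0.24 to 0.24, and for Gclm from -0.39 to 0.45. Exons of Gm17494 and Gm6061 overlap Gclm, and with all reads of these genes added the Gclm change was 0.15. After removal of length and GC trends Gclm had 0.14 and Gss 0.15. Gclm had 971, 1100.3 and 1224 with R837 and 877, 1478 and 1067 with taurine, and its highest and lowest values were both taurine libraries. The ratio of Gclm to Gclc was 0.513 ± 0.105 with R837 and 0.531 ± 0.145 with taurine (two-sided exact permutation p = 0.9). Gsr, glutathione reductase, was the most abundant gene of the arm and went from 15268 ± 91.4 to 15306 ± 943. Its 95% interval of -0.14 to 0.15 was among the narrowest of the set. Gss, glutathione synthetase, had a change of 0.049. It became -0.31 when all reads of the overlapping genes Acss2, Gssos1 and Gssos2 were added. Acss2 had 538, 533 and 638 with R837 and 442, 442 and 286 with taurine. Gss had means of 338 and 350, so the value of -0.31 is in large part that of Acss2.

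Slc7a11, the cystine importer that feeds glutathione synthesis and a textbook NRF2 target, had 511, 776 and 802 with R837 and 925, 990.0 and 755 with taurine. R837 replicate 1 was the lowest library and the groups overlapped, and the change of 0.37 ± 0.19 (SE) did not pass (adjusted p = 0.273). It was 0.16 without R837 replicate 1. Its longest transcript holds a stretch like alpha-tubulin genes, 92.5% identical to Tuba1b over 585 bases and 93.4% identical to Tuba1a over 483. Tuba1b and Tuba1a had means of 9923 and 6169 normalized counts, far above Slc7a11, so its level is uncertain. Gpx1, the cytosolic glutathione peroxidase, varied widely, at 439.7, 449.5 and 380.0 with R837 and 954, 346 and 592 with taurine. Taurine replicate 1 was the highest library and taurine replicate 2 the lowest of all 6, and the change was 0.46 ± 0.31 (SE) (adjusted p = 0.413), or 0.10 without taurine replicate 1 and 0.83 without taurine replicate 2. The membrane-bound transferase genes Mgst3 (48.2 ± 8.45 to 61.8 ± 21.1) and Mgst1 (17.1 ± 12.2 to 28.4 ± 21.1) had few reads. Their 95% intervals of -0.46 to 1.09 and -0.91 to 2.25 leave even large changes undetectable in these libraries. Without taurine replicate 3 the Mgst3 change of 0.31 was 0.0590, and without taurine replicate 2 the Mgst1 change of 0.67 was 0.12; with other libraries left out they reached 0.54 and 1.19.

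The thioredoxin arm had 3 of 12 genes that rose and 0 that fell, where 3.75% of all tested genes rose and 2.66% fell. All 12 changes were above 0, as were 48.6% of those of all tested genes. Txn1, cytosolic thioredoxin, the small protein that hands electrons to peroxiredoxins and ribonucleotide reductase (ENSMUSG00000028367.5, chromosome 4, 57943373 to 57956411, minus strand), had 4511, 3824 and 3724 normalized counts with R837 and 6243, 5606 and 5924 with taurine. The groups were well apart, with a change of 0.56 ± 0.092 (SE) and an adjusted p of 0.0136. Srxn1, sulfiredoxin, which revives over-oxidised peroxiredoxins and is a classic NRF2 target (ENSMUSG00000032802.8, chromosome 2, 152105516 to 152111376, plus strand), had 1830.4, 1654 and 1382 with R837 and 2699.7, 2357 and 2189 with taurine. Taurine values were again all higher, with a change of 0.58 ± 0.13 (SE) and an adjusted p of 0.0341.

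Prdx5, a peroxiredoxin of mitochondria, peroxisomes and cytosol (ENSMUSG00000024953.16, chromosome 19, 6906697 to 6910106, minus strand), had 1707, 1449.7 and 1555 with R837 and 2040.4, 2064 and 2434 with taurine. The change was 0.47 ± 0.11 (SE) with an adjusted p of 0.0381. Exons of Trmt112 overlap Prdx5 over 409 bases, and with its reads added the change was 0.34 with an adjusted p of 0.0681, so the Prdx5 call is uncertain. Without 1 library the calls of Txn1, Srxn1 and Prdx5 held in 3, 2 and 1 of the 6 fits.

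The other peroxiredoxins did not pass. Prdx1, the most abundant gene of the whole set, had 38153, 32547 and 24056 with R837 and 43343, 33598 and 34015 with taurine. R837 replicate 3 was the lowest and taurine replicate 1 the highest library, the remaining 4 overlapped, and the change of 0.24 ± 0.16 (SE) had an adjusted p of 0.407. It was 0.0596 without R837 replicate 3, 0.12 without taurine replicate 1 and 0.39 without R837 replicate 1. Prdx2, Prdx3, Prdx4 and Prdx6 had differences of 0.19, 0.12, 0.10 and 0.081 on the log2 scale (adjusted p 0.451 to 0.715, limma). Single libraries moved these values: Prdx2 had 0.0969 and Prdx6 0.00477 without taurine replicate 2, and Prdx3 had 0.0336 and Prdx4 0.0192 without taurine replicate 1. Their highest values with a library left out were 0.30 for Prdx2, 0.23 for Prdx3, 0.20 for Prdx4 and 0.15 for Prdx6. Prdx2 overlaps Junb by 173 bases, a gene with far more reads, so its own level is uncertain. With all reads of Junb and Rnaseh2a added to it, the change was 0.26 with an adjusted p of 0.0421 in limma. Junb had 14653, 14447 and 15548 normalized counts with R837 and 17243, 17624 and 18494 with taurine. Prdx2 had means of 598 and 684. The sum is thus mostly Junb, and its passing says nothing about Prdx2 itself.

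Thioredoxin reductase and the inhibitor of thioredoxin did not pass either. Txnrd1, the cytosolic reductase that recharges thioredoxin with NADPH, had 5213, 6917 and 5016 with R837 and 8808, 6360.5 and 5383 with taurine. Taurine replicate 1 stood above the rest and R837 replicate 2 above the other taurine libraries, and the change of 0.25 ± 0.18 (SE) had an adjusted p of 0.458, and it was 0.0491 without taurine replicate 1, 0.16 without R837 replicate 3 and 0.40 without taurine replicate 3. Txnip, which binds and inhibits thioredoxin, had 1426, 1232 and 1343 with R837 and 1435, 1642 and 1713 with taurine. Its taurine values were all above those with R837, narrowly so at the closest pair, and the change was 0.26 ± 0.11 (SE) (adjusted p = 0.183). The mitochondrial pair Txn2 and Txnrd2 had changes of 0.17 and 0.082, which were 0.0863 for Txn2 without R837 replicate 3 and -0.0109 for Txnrd2 without taurine replicate 2. The ratio of Txn1 to Txnip was 3.01 ± 0.211 with R837 and 3.74 ± 0.529 with taurine, with no overlap between groups (two-sided exact permutation p = 0.1, the smallest that 3 against 3 allows).

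**Figure D2:**
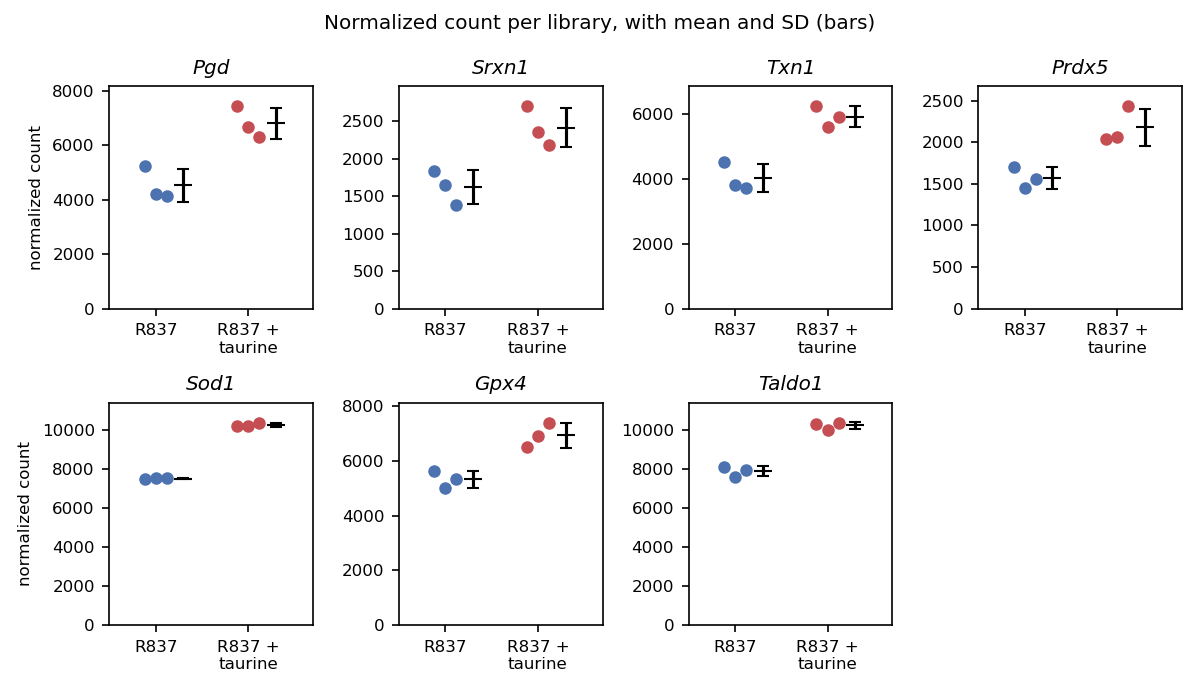
Normalized count in each library (y axes, from 0) for the 7 genes with an adjusted p under 0.05, R837 in blue and R837 plus taurine in red, with mean and SD as bars (n = 3). In each of the 7 panels the 3 taurine libraries lie above the 3 R837 libraries, and Sod1 has the tightest groups, at 7529.9 ± 35.2 to 10288 ± 94.5.

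Of the 4 genes that act on superoxide, hydrogen peroxide and quinones, 1 rose, Sod1, where 3.75% of all tested genes rose. Sod1, the cytosolic copper and zinc superoxide dismutase (ENSMUSG00000022982.9, chromosome 16, 90220742 to 90226322, plus strand), had 7489, 7547 and 7553 normalized counts with R837 and 10248, 10220.3 and 10396 with taurine. The libraries of each group lay far closer to each other than to the other group, and the change was 0.45 ± 0.059 (SE) with an adjusted p of 0.00691. It was the 1 gene of the 37 that kept its call whichever library was left out, with a change of 0.44 to 0.46. Sod2, the mitochondrial manganese enzyme, had 1774, 1605 and 1600.2 with R837 and 1959.6, 2010.4 and 2047 with taurine. All taurine values were higher, but the change of 0.27 ± 0.086 (SE) had an adjusted p of 0.0937, and it was 0.43 with an adjusted p of 0.0361 after removal of length and GC trends. The ratio of Sod1 to Sod2 was 4.55 ± 0.283 with R837 and 5.13 ± 0.0854 with taurine (exact permutation p = 0.1, two-sided).

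Nqo1, the quinone reductase most often used as a readout of NRF2, was scarce, at 118, 82.8 and 81.2 with R837 and 227, 127 and 132 with taurine. Its groups were separate, with taurine replicate 1 highest, and its log2 change of 0.75 ± 0.29 (SE) was the largest of the 37 but had an adjusted p of 0.156. It was 0.48 without taurine replicate 1. Cat, catalase, went from 2427 ± 402 to 2435 ± 233 with fully overlapping groups (log2 change 0.014, 95% interval -0.28 to 0.31).

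In the NADPH arm, 2 of 5 genes rose and 0 fell, where 3.75% of all tested genes rose and 2.66% fell. Pgd, 6-phosphogluconate dehydrogenase, the enzyme that makes the later NADPH of the oxidative pentose phosphate pathway (ENSMUSG00000028961.15, chromosome 4, 149149991 to 149166771, minus strand), had 5229.7, 4226 and 4130.1 normalized counts with R837 and 7435, 6675 and 6316 with taurine. The groups were well apart, with a change of 0.59 ± 0.11 (SE) and an adjusted p of 0.0188. Taldo1, transaldolase of the non-oxidative branch (ENSMUSG00000025503.5, chromosome 7, 141392199 to 141402968, plus strand), had 8135, 7613 and 7969 with R837 and 10323, 10029 and 10384 with taurine. All taurine values were higher, and it rose by 0.37 ± 0.062 (SE) on the log2 scale with an adjusted p of 0.0144. Pgd and Taldo1 each kept the call in 2 of the 6 fits with 1 library left out, the ones without R837 replicate 1 or 3.

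G6pdx, glucose-6-phosphate dehydrogenase, the entry enzyme of the pathway, lay just outside the threshold. It had 3954, 3496 and 3286 with R837 and 4866, 4382 and 4499.6 with taurine, with all taurine values higher, a change of 0.36 ± 0.091 (SE) and an adjusted p of 0.0520. Exons of Ikbkg overlap it by 418 bases, and with all reads of Ikbkg added the change was 0.28 (adjusted p = 0.0961). It passed in limma with a pseudocount of 5 (adjusted p = 0.0485), with a mean of at least 50 required (0.0424) and with quantile normalization (0.0491), and in DESeq2 (0.00797). Tkt, transketolase, was the most abundant gene of the arm by reads, at 18778, 16492 and 15962 with R837 and 18350.4, 18506 and 18368 with taurine. R837 replicate 1 exceeded all taurine libraries, and the change was 0.11 ± 0.072 (SE) (adjusted p = 0.389), or 0.18 without R837 replicate 1 and 0.0649 without R837 replicate 3. Me1, the cytosolic malic enzyme, had only 65.1, 27.0 and 16.7 with R837 and 92.9, 46.6 and 24.4 with taurine, with replicate 1 highest in both groups and a change of 0.60 ± 0.61 (SE) (adjusted p = 0.605). It was 0.12 without taurine replicate 1, 0.17 without R837 replicate 3, 1.07 without taurine replicate 3 and 1.12 without R837 replicate 1.

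Per length of exon, levels of the 37 genes spanned from 11267 normalized counts per kilobase for Prdx1 to 11.3 for Mgst1, as means over all 6 libraries. Gsr (5551), Txn1 (4731), Taldo1 (4180.35) and Gpx4 (3553) followed Prdx1, and Tkt (2412) and Sod1 (2244) came next. Neighbours such as Txn1 and Taldo1 differed by less than their SD over libraries. Pgd, Prdx5, Txnrd1 and Cat lay close together, at 877 to 930.3 per kilobase. The catalytic ligase subunit Gclc (575) stood above the modifier Gclm (178). At the low end stood Nqo1 (82.3), Gss (58.1), Slc7a11 (57.0), Mgst3 (50.2), Txnrd2 (19.8) and Me1 (11.8). Within this order, 6 of the 7 genes that rose were among the 14 highest by level and Srxn1 was the 15th. Before division by length, the median of the mean normalized counts was 5668 for the 7 genes and 1875 for the 37. It was 437 for all tested genes, so the shares of all tested genes come from a less abundant set. Whether abundance bears on the share called was not tested.

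**Figure D3:**
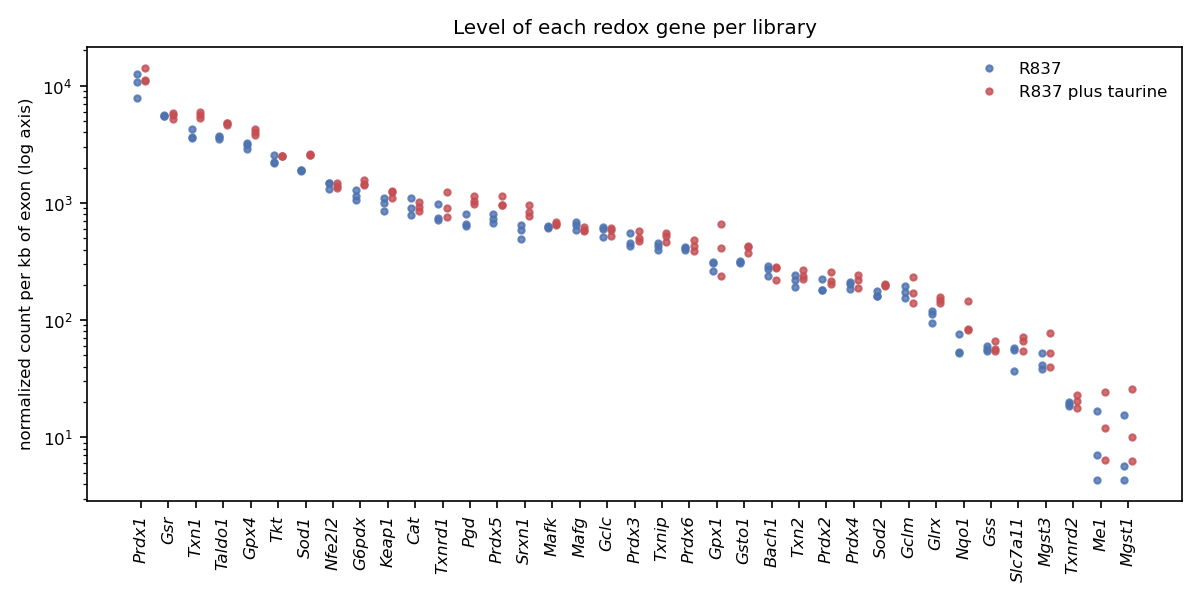
Normalized count per kilobase of annotated exon (y axis, log scale) for each of the 37 genes in order of level; each point is 1 library, blue for R837 and red for R837 plus taurine. Prdx1 is highest at 11267 on average and Mgst1 lowest at 11.3, and the points of scarce genes spread most.

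Levels of the set also varied between libraries of the same group. R837 replicate 1 was the highest R837 library for 23 of the 37 genes, or 62.2%, against 33.1% of all tested genes, and R837 replicate 3 was the lowest for 20, or 54.1%, against 37.6%. Taurine replicate 1 was the highest taurine library for 17 genes, or 45.9%, against 32.1%. Keap1, Bach1, Gss, Gsr, Srxn1, Txn1, Prdx1, Prdx3, Nqo1, Cat, Me1, Pgd and G6pdx were highest in replicate 1 of both groups. The replicate numbers are not stated to pair libraries.

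Of 100 other redox genes listed beside the set, 99 were in the files, 89 were tested, 9 rose and 0 fell in limma and edgeR, while DESeq2 called 3 lower. Among all tested genes 3.75% were called higher and 2.66% lower in limma. At an unadjusted p under 0.05 in limma, 23 of the 89 were higher and 9 lower, or 25.8% and 10.1%, against 11.6% and 12.2% of all tested genes. Hmox1, heme oxygenase and an NRF2 and BACH1 target, had 3049, 2349 and 2397 with R837 and 5302, 4127 and 4492 with taurine. The groups were separate, with a change of 0.84 ± 0.13 (SE) and an adjusted p of 0.0121. Sqstm1 (p62), an autophagy receptor that sequesters KEAP1, had 35742, 35213 and 33994 with R837 and 47050.1, 45144 and 45169 with taurine. Its change was 0.39 ± 0.052 (SE) with an adjusted p of 0.00748, kept whichever library was left out. Rbx1, a RING subunit of the ligase that KEAP1 joins through CUL3, rose by 0.49 (adjusted p = 0.0205), while Cul3 itself had -0.020.

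Further genes of that list rose as well. Selenow, a small selenoprotein with a thioredoxin-like fold, went from 6258 ± 573 to 9406 ± 794 (log2 change 0.59, adjusted p = 0.0121). Esd, which hydrolyses S-formylglutathione, had a change of 0.55, and the aldehyde reductase Akr1a1 one of 0.31. Rpia, ribose-5-phosphate isomerase, which links both branches of the pentose phosphate pathway, rose by 0.41 (adjusted p = 0.0136). Mthfd2, a mitochondrial folate enzyme, rose by 0.33. Cyba, the p22 subunit of the NADPH oxidase, rose by 0.35 (adjusted p = 0.0249), while its catalytic partner Cybb had -0.048 and Ncf1 -0.019. With 1 library left out, the calls of Hmox1, Selenow and Esd held in 4 of the 6 fits and that of Rpia in 3. Those of Rbx1 and Akr1a1 held in 2, and those of Mthfd2 and Cyba in 1. By group, the genes called higher of those tested were 2 of 10 regulators, 1 of 26 glutathione genes, 1 of 19 thioredoxin and methionine sulfoxide genes, 2 of 15 detoxification genes, 2 of 13 NADPH genes and 1 of 6 oxidase genes. The share among all tested genes was 3.75%, and the glutathione and thioredoxin groups lay near it. The median change of these 89 genes was 0.15. Leaving out R837 replicate 2 left 1 that rose, leaving out taurine replicate 2 left 4 and leaving out taurine replicate 3 left 1. Over all genes these fits called 100, 156 and 101 higher, against 573 with all 6 libraries.

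Transcript length moved with the groups across the whole series. Across genes, Spearman's rho between exon length and the deviations of a library was 0.0443 to 0.147 in R837 libraries and -0.203 to -0.100 in taurine libraries. For GC content it was -0.159 to -0.055 in R837 libraries and -0.0441 to 0.234 in taurine libraries. Genes with exons shorter in all than the median tested gene (3.71 kilobases) rose in 5% of cases and longer ones in 2.52%. The 37 genes had a median exon length of 3.77 kilobases, the 7 that rose 2.17, and 5 of the 7 were shorter than the median tested gene, as were 18 of the 37. After removal of each library's length and GC trends, the median change of the 37 genes was 0.27, and 6 of them passed, where 4.34% of all genes rose. Of the 7, Pgd, Txn1, Sod1 and Taldo1 still passed, while Gpx4, Srxn1 and Prdx5 had adjusted p-values of 0.0508, 0.0545 and 0.0603. Glrx and Sod2 passed in their place.

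**Figure D4:**
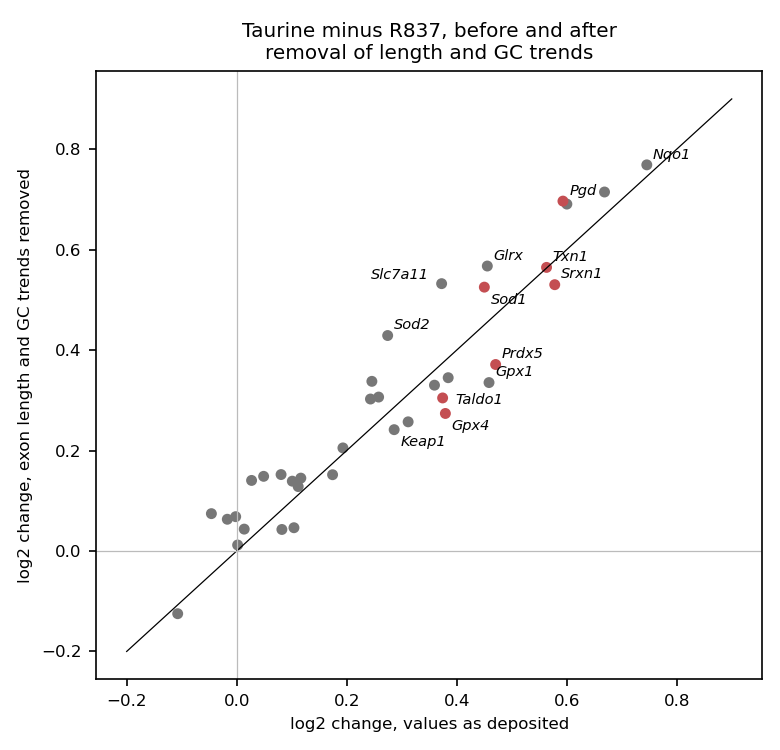
Log2 change of each of the 37 genes from the deposited values (x axis) and after removal of each library's trends on exon length and GC content (y axis); red marks an adjusted p under 0.05 in the deposited values and the line marks equality. The long transcripts Sod2 and Slc7a11 lie above the line. The short Gpx4 and Gpx1, with a GC content of 60.2% and 57.2%, lie below it. Not all genes follow length: Txn1, at 1.05 kilobases, lies near the line, and Keap1, at 4.69, lies below it.

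The 7 genes kept a change above 0 with any library left out, but without R837 replicate 2, taurine replicate 1 or taurine replicate 3 only Sod1 passed. edgeR on the recovered reads called the same 7 genes, where 3.74% of all genes rose, and DESeq2 called these and Glrx, Gsto1 and G6pdx, where 7.66% rose.

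**Figure D5:**
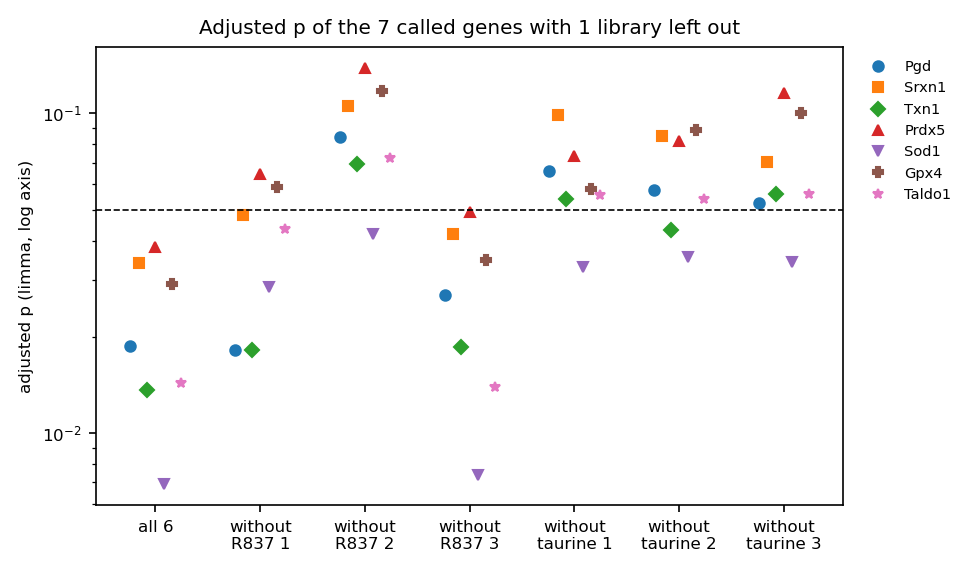
Adjusted p from limma (y axis, log scale) of the 7 genes that rose, with all 6 libraries and with each library left out in turn; the dashed line marks 0.05. Sod1 stays below the line throughout, and without R837 replicate 2 the other 6 genes lie above it.

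Markers of other cells moved with the groups for some lists. Among all tested genes 3.75% were called higher and 2.66% lower, and 11.6% and 12.2% were so at an unadjusted p under 0.05 in limma. Erythroid markers, whose cells are rich in Prdx2, Cat and Gpx1, summed to 1575 to 1744 normalized counts with R837 and 1998 to 2486 with taurine over the 13 of 14 markers found, and 1 of the 7 tested rose, the globin gene Hba-a1. It had 38.7, 26.0 and 38.5 with R837 and 67.6, 106 and 90.2 with taurine, and shares near-identical sequence with Hba-a2. Most of this sum was Car2, without which it was 111 to 164 and 208 to 346. Neutrophil markers summed to 1638 to 2444 and 2623 to 2962 over 13 markers, and 1 of the 11 tested rose, Ngp. Monocyte and macrophage markers summed to 17506 to 19040.4 and 18478 to 22048 over 16, with 1 higher (Fcgr1) and 1 lower (Cx3cr1) of 15 tested. The 10 B cell markers summed to 72488 to 75766 and 79238 to 82276, or 1928 to 3026 and 2050 to 2753 without Ighm, and 0 of 9 passed in limma, with 2 at an unadjusted p under 0.05. Conventional dendritic cell markers summed to 34856 to 36933 and 29173 to 30982, and 2 of the 10 tested fell, Clec9a and Flt3. Flt3 (mean 12401 to 9517), Itgax (11165 to 9180) and Sirpa (6472 to 5609) had the most counts of them. Of the 10, 4 had changes above 0, among them Batf3 (0.54) and Itgae (0.44), while Xcr1 went from 47.8 to 46.9. Whether the counts of these markers came from conventional dendritic cells was not tested. The 12 T and NK cell markers summed to 4447 to 5423 and 4461 to 5611. Most of this sum was Cd8b1, at 3908, 4292 and 4907 with R837 and 4039, 4712 and 5175 with taurine. Cd3d, Cd3g and Gzma were at 0 in every library. Of the 4 tested, 0 passed in limma and 1 had an unadjusted p under 0.05. Of the 18 markers of plasmacytoid dendritic cells themselves 3 rose and 5 fell, shares well above the 3.75% and 2.66% of all tested genes. The smallest p-values in limma were those of Runx2 (-0.60) and Tcf4 (-0.51). After removal of length and GC trends Tcf4, Hba-a1 and Cx3cr1 no longer passed, with adjusted p-values of 0.155, 0.0572 and 0.0616 in limma. The part of these cells in the redox changes was not tested.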

How the data were processed

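The authors deposited 1 signal value per gene and library, which the file headers call a normalized count. Divided by 1 step per library, 100% of values came within 0.001 of a whole read, so reads had been divided by 1 size factor, between 0.942 and 1.06. The submitters' processing notes name HISAT2, StringTie, mm8 and mm10, without roles or versions. The counting tool is not given in the sources used here, nor is its strand setting. Reads of genes with overlapping exons on either strand can therefore not be separated. Coordinates are those of the files, and 95.2% of the 52403 identifiers shared with GENCODE M21 (mm10) had the same ones.

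Genes reaching 10 normalized counts in 3 or more libraries were tested on log2(normalized count + 1) with limma 3.58.1 in R 4.3.3, with 1 group term, a prior variance that follows abundance, two-sided tests and Benjamini-Hochberg adjustment over all tested genes. This log-scale test was chosen because the files were expected to hold normalized counts, not raw reads. edgeR 4.0.16 (quasi-likelihood, TMM) and DESeq2 1.42.0 on the recovered reads were alternatives, as were pseudocounts of 0.5 and 5, no filter, a mean of at least 50, quantile normalization, totals without the 50 most abundant genes, no abundance trend, reads of overlapping genes added, a replicate block, removal of length and GC trends (mgcv 1.9.3, exon length and GC from GENCODE M21) and leaving out each library. Reads of overlapping genes were added in full, not only those on shared exons. Fits were tested on simulated data. Copies of members were sought with blastn among GENCODE transcripts. The 4 ratios of members were compared by exact permutation, with Benjamini-Hochberg adjusted p-values of 0.2 to 0.9. The members and lists were chosen with earlier results of these data known. The text names all 37 members, up to 4 called genes per other redox list and up to 2 per marker list by smallest p. Cul3, Cybb, Ncf1, Car2, Ighm, Cd8b1, Itgax, Sirpa, Batf3, Itgae, Xcr1 and genes overlapping members were named after their values were seen. Promoter sequences are from RefSeq (GRCm38.p6). All 37 genes of the mitochondrial genome are listed at 0. The listed genes Cybc1 and Ahsp were not matched by symbol.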

Additional observations from a re-analysis of the deposited data

How the results depend on the processing

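Over all genes the numbers called higher and lower (573 and 406) were 333 and 214 without a filter on low values, 1 and 3 in limma without the abundance trend and 923 and 885 with DESeq2. With 1 library left out they ran from 100 to 780 and from 30 to 723. The genes of the set called higher were 4 without a filter and 0 without the trend (where the lowest adjusted p was 0.0935), 8 with a pseudocount of 5, a mean of at least 50 or quantile normalization (each adding G6pdx), and ran from 1 to 7 with a library left out; 0 were lower under every alternative run. The 9 other redox genes called became 0 without the trend, where 27 had an unadjusted p under 0.05, and ran from 1 to 10; the number lower was 3 with DESeq2 and ran from 0 to 1. DESeq2 gave no adjusted p for Mgst1 and Me1. Scaling totals without the 50 most abundant genes moved the median over all genes to -0.0453, and the split of all calls to 462 higher and 586 lower.

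The replicate number as a block gave 365 higher and 250 lower genes, 5 genes of the set (Gpx4 and Prdx5 were lost) and 8 higher and 1 lower among the other redox genes; with length and GC trends also removed it gave 430 and 167, 5, and 8 and 0. Same-numbered libraries had correlations of deviations of -0.00264, -0.00681 and -0.0434, and none correlated best with its own number, so the numbers were not taken as pairs.

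Of 673 values of single genes under the alternatives, 591 kept direction and side, 43 lost the threshold, 9 passed it and 30 changed sign. The sign changes fell on 8 genes whose log2 change was at most 0.0822 in size and of which 0 were called. With length and GC trends removed, with or without the block, Nfe2l2 had 0.0632, Bach1 0.0744 and Gclc 0.0683. Gclc had 0.0152 with quantile normalization and 0.00536 with edgeR, Gsr -0.0576 with quantile normalization and -0.0321 without the 50 most abundant genes, where Gclm had -0.00678 and Cat -0.0202. Gss had -0.31 with all reads of its overlapping genes added. With a library left out the ranges were -0.0664 to 0.0188 (Nfe2l2), -0.12 to 0.0766 (Bach1), -0.0304 to 0.11 (Gss), -0.18 to 0.20 (Gclm), -0.0412 to 0.0478 (Gsr), -0.0799 to 0.0661 (Gclc), -0.0109 to 0.18 (Txnrd2) and -0.0992 to 0.14 (Cat). Apart from the fits with fewer libraries, the cause of these differences was not tested. Mgst1, Me1, Mgst3, Txnrd2 and Nqo1 had the fewest reads of the set. Whether more reads would narrow their intervals was not tested.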
